A study of Mus musculus with 8 samples.

Results

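The 48 genes described here are markers of cell cycle phase, followed in 4T1 cells given acetate or vehicle. They were chosen by name: 23 genes of the G1/S transition and DNA replication (Mcm2 to Ccne2) and 25 genes of G2 and mitosis (Ccna2 to Hmmr), out of 20189 genes in the table, and all 48 were measured in all 8 libraries. 4T1 is an established line of mouse mammary carcinoma cells, used as a model of breast cancer that forms lung metastases. Messenger RNA was sequenced from cells kept for 48 hours in 5 mM acetate, a short acid that cells can turn into acetyl-CoA, or in vehicle (water), with 4 libraries in each group. All 8 libraries came from the same line, labelled WT, grown in the same serum-containing medium, so treatment was the only difference the labels gave between the groups. The acetate and vehicle libraries of one replicate number carried a shared code in the labels and were compared as pairs. The study counts the replicates of this comparison as independent experiments. The p-values of the paired fit measure the spread of the change between pairs, not the spread between libraries. The question was whether acetate treatment moved the genes of either phase.

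A dividing cell switches on its cycle genes in waves. In late G1, cyclin D and cyclin E kinases phosphorylate the Rb protein, which releases E2F transcription factors, and E2F targets then supply the MCM helicase, nucleotides and the replication fork. Later, the DREAM and MuvB complexes, with B-Myb and FoxM1, time the G2 and mitosis genes, whose promoters commonly hold a cell cycle homology region (CHR) together with CCAAT boxes bound by NF-Y. RNA from an unsynchronised culture therefore mixes all phases, and a lower level of a phase's genes can mean fewer cells in that phase or less RNA per cell, which cannot be told apart here.

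Promoters from the RefSeq table of build GRCm38.p6, which spans 250 bases before to 50 bases after each start site, were matched for 38 of the 48 members, giving 19 promoters for G1/S genes and 21 for G2/M genes. Each was searched on both strands for an E2F motif spelled TTCCCGC or TTCGCGC or TTGCCGC or TTGGCGC, for a CHR spelled TTTGAA or TTCGAA, and for CCAAT. The E2F spellings and CCAAT can overlap, since the reverse of TTGGCGC ends with the start of a CCAAT box. An E2F spelling was present in 12 of the 19 G1/S promoters (63.2%), in 6 of the 21 G2/M promoters (28.6%) and in 9.57% of all 32851 promoters of the table. A CHR spelling was found in 17 of the 21 G2/M promoters (81.0%), in 3 of the 19 G1/S promoters and in 19.2% of all promoters. CCAAT was held by 19 G2/M promoters (90.5%), by 13 G1/S promoters and by 37.4% of all promoters. Both CHR and CCAAT occurred in 17 G2/M promoters, against 7.52% of all. The choice of genes by name had not used these letters, and the shares were not tested. These matches describe letters in a fixed window and are not evidence that a factor binds there.

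Promoter stretches are printed for the 3 genes of each phase with the smallest p in the comparison below whose stretch held one of these spellings. Each is given 5′ to 3′ on the strand of its gene and ends before the outermost start annotated for that gene. Capitals mark the matched motifs, in either direction (ATTGG is CCAAT, and GCGCCAA is TTGGCGC, read from the other strand). The positions are chr8:75109259-75109467 (plus strand) for Mcm5, chr1:128359706-128359955 (minus) for Mcm6 and chr12:24708004-24708240 (plus) for Rrm2. The G2/M stretches lie at chr4:118437353-118437593 (minus) for Cdc20, chr13:100786571-100786736 (minus) for Ccnb1 and chr2:164769679-164769897 (plus) for Ube2c.
Mcm5: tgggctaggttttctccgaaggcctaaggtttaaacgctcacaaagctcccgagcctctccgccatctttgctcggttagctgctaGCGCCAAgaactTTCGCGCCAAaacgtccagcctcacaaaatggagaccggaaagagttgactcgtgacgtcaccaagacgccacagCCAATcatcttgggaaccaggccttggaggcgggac
Mcm6: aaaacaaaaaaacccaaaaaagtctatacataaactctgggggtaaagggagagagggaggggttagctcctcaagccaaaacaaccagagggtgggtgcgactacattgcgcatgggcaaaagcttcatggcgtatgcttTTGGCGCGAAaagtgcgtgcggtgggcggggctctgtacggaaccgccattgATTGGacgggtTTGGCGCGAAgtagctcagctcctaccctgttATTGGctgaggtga
Rrm2: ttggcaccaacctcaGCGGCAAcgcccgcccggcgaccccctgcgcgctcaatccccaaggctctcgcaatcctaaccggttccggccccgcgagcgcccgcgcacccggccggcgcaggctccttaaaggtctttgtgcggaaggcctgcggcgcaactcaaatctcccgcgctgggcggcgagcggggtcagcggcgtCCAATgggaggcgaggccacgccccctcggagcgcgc
Cdc20: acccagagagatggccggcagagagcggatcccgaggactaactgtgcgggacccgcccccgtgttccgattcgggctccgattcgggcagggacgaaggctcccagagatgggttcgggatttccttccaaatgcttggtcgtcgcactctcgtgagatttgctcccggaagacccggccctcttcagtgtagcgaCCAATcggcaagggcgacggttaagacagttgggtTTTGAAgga
Ccnb1: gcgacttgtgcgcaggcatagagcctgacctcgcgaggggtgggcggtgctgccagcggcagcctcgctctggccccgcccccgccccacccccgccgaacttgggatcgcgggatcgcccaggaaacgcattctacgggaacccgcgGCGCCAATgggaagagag
Ube2c: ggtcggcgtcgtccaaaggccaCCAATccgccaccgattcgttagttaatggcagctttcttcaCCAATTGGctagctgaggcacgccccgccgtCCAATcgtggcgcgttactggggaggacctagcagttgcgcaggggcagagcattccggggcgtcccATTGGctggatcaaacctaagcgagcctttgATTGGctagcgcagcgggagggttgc
The Mcm5 stretch held 3 E2F matches and 1 CCAAT, and the Mcm6 stretch 4 E2F matches and 2 CCAAT boxes. The Cdc20 stretch held 1 CHR downstream of 1 CCAAT box and no E2F spelling. The Ube2c stretch held 6 CCAAT boxes. A CHR spelling of the Ube2c promoter, at -29 to -24 from the start site, lay beyond the printed stretch. The Ccnb1 stretch held no CHR and 1 E2F spelling that overlaps its CCAAT box.

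The values are normalised reads, scaled by the authors to an equal total of about 20000001 units in each library. In each library 1 read was worth between 0.682 and 1.01 units. Recovered depth ran from 19.9 M to 29.3 M reads (M, mega) per library. All 8 epithelial markers were above 0 in every library, and 3 of the 8 rose with acetate: Krt19, Cldn4 and Cdh1, with log2 changes of 0.40, 0.30 and 0.15 (limma adjusted p = 0.000254, 0.000319 and 0.00592), while 5 did not pass. Of 6 markers of other cell types in the table, Ptprc, Pecam1, Cdh5 and Des were at most 4.85 units and Cd68 lay between 66.7 and 191 units. The sixth, Pdgfra, a growth factor receptor of mesenchymal cells, was higher in acetate in 4 of 4 pairs (log2 change 0.52 ± 0.056, SE, limma adjusted p = 0.000372). The summed level of these 6 markers ran from 312 to 1693 units with vehicle and from 465 to 2153 with acetate. The share of mitochondrial reads was 2.16 to 2.60% and that of ribosomal protein genes 4.24 to 4.87%. Relative to vehicle, the ribosomal protein share differed by 0.550%, -6.20%, -1.15% and -9.88% with acetate in replicates 1 to 4. The part that these markers, other cells or RNA quality may have in the results below was not tested.

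Of the 48 members, 3 fell and 1 rose with acetate. The fallers were Mcm5 and Mcm6, subunits of the replicative helicase, and Cdc20, an activator of the anaphase-promoting complex, and the riser was E2f1, a transcription factor of the G1/S programme. Their log2 changes lay between -0.16 and 0.13, and the vehicle and acetate ranges overlapped for all 48 members. The test was limma on log2(value + 1) with the replicate number as a block, and p-values were adjusted by Benjamini-Hochberg over all 20189 genes with a threshold of 0.05. By the same rule 5.99% of all genes were higher and 2.65% lower. The members are well expressed genes, and among the 9109 genes with a mean at or above that of the lowest member (223 units), 9.54% were higher and 5.53% lower. The 6.25% of members that fell was thus close to the share among genes of like expression, and the 2.08% that rose was below it. The 1744 calls over all genes were 1209 higher and 535 lower, and a median-of-ratios scaling turned this split into 1000 higher and 821 lower.

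The calls rested on the pairing and on most of the replicates. In the fit without the replicate block, none of the 48 members passed (limma adjusted p = 1.00 for each, with 0 members at an unadjusted p under 0.05), and of all genes 0 passed, with 353 at an unadjusted p under 0.05. With replicate 2, 3 or 4 left out, 0 members passed, and with replicate 1 left out Mcm5, Mcm6, Cdc20 and Ube2c did. Calls over all genes moved alike, from 1744 to 617, 409 and 539 without replicates 2, 3 and 4, and to 1662 without replicate 1. The blocked count tests on recovered reads called 9 members lower with edgeR (Mcm4, Mcm5, Mcm6, Rrm2, Ccne2, Ccna2, Cdc20, Kif23 and Ube2c) and 5 lower with DESeq2 (Mcm4, Mcm5, Mcm6, Ccna2 and Cdc20), and none higher. Over all 20189 genes edgeR called 1086 lower and 1314 higher, and DESeq2 called 473 lower and 653 higher. Mcm5, Mcm6 and Cdc20 were called by both count tests, and E2f1 by neither.

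**Figure D1:**
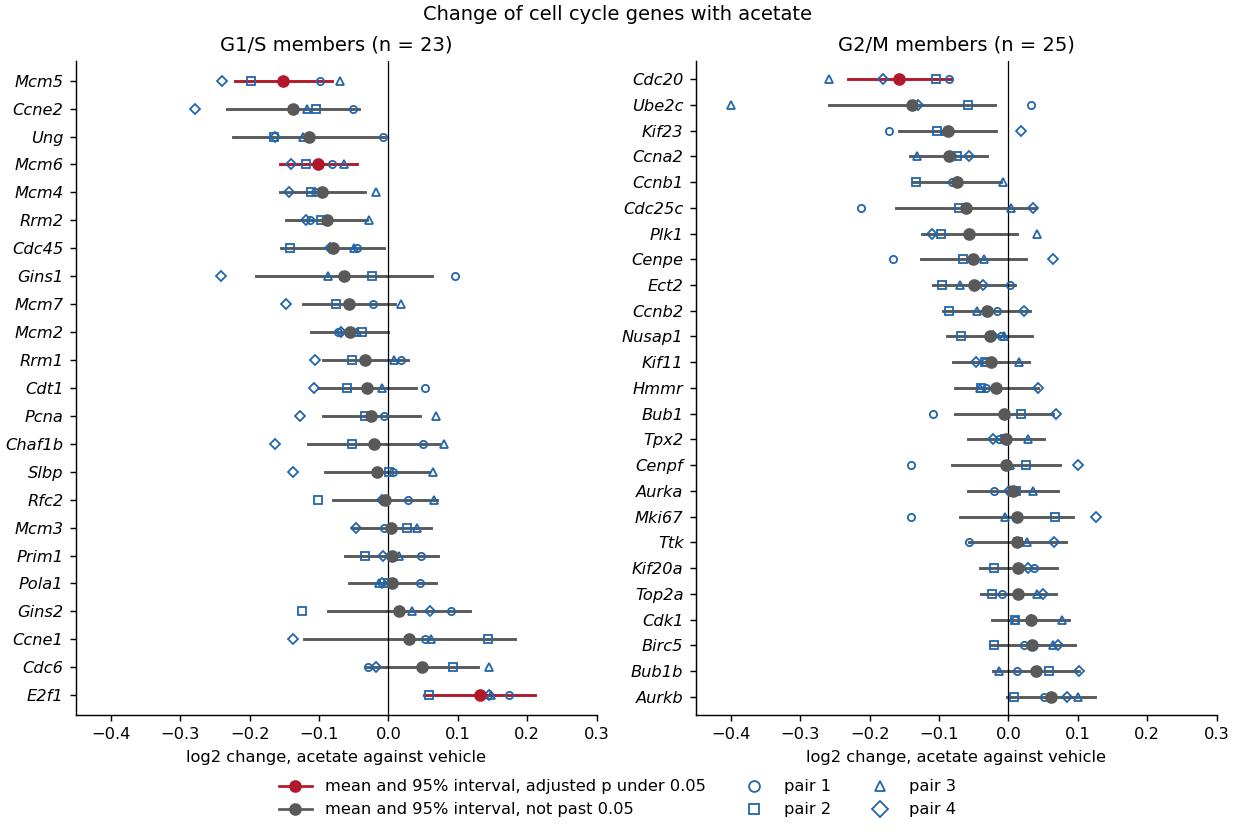
Log2 change of each member with acetate against vehicle, on the log2(value + 1) scale, with G1/S genes at the left and G2/M genes at the right. Filled points and bars are the mean and its 95% interval from the blocked fit (red where the adjusted p was under 0.05), and open symbols are the 4 pairs. Most members lie within 0.1 of 0, Mcm5, Mcm6 and Cdc20 lie lower in all 4 pairs, and E2f1 lies higher in all 4.

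The 6 MCM subunits form the ring that unwinds DNA at replication origins, and 2 of the 6 fell. Mcm5 (ENSMUSG00000005410, chr8:75109569-75128439, plus strand, spans from GENCODE M21 on GRCm38) was at 7124, 6601, 6495 and 5545 units in vehicle replicates 1 to 4 and at 6656, 5754, 6189 and 4693 in the matching acetate libraries. Every acetate library was below its own vehicle library, but acetate replicate 1 lay above vehicle replicates 2, 3 and 4. Mcm5 fell by 9.97%, from 6441 ± 658 to 5823 ± 838 units (SD, n = 4 each), a log2 change of -0.15 ± 0.032 (SE, limma adjusted p = 0.0133). Its adjusted p was 0.106, 0.0540 and 0.0995 without replicates 2, 3 and 4.

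Mcm6 (ENSMUSG00000026355, chr1:128331590-128359664, minus strand) was at 6599, 7157, 7184 and 6866 units with vehicle and at 6240, 6593, 6872 and 6231 with acetate. It varied less between replicates than Mcm5, and again all 4 pairs were lower with acetate. Mcm6 fell by 6.75%, a log2 change of -0.10 ± 0.025 (SE, limma adjusted p = 0.0310). The call was lost with quantile scaling (adjusted p = 0.0556) and without replicates 2, 3 or 4 (adjusted p = 0.173, 0.104 and 0.129).

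Mcm4 and Mcm2 were also lower in 4 of 4 pairs and did not pass, with log2 changes of -0.10 (limma adjusted p = 0.0604) and -0.06 (adjusted p = 0.218). Mcm7 had a log2 change of -0.06 with mixed pairs, and Mcm3 one of 0.00. Per kilobase of exon the subunits had vehicle levels between 648 (Mcm2) and 1679 units (Mcm3). Mcm7 overlaps Cops6 and Ap4m1 on the opposite strand, and since the strand setting of the counting was not stated, reads could be shared between them.

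Of the 5 licensing and helicase activation genes, none passed with limma, edgeR or DESeq2, and 1 was at an unadjusted p under 0.05. Cdc6 and Cdt1, which load the helicase, had log2 changes of 0.05 and -0.03. Cdc45, which joins the helicase to activate it, was lower in 4 of 4 pairs at -0.08 ± 0.034 (SE, limma adjusted p = 0.185). The GINS subunits Gins1 and Gins2 had changes of -0.06 and 0.02.

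The 9 genes of the fork and its supplies followed, and none passed with limma, while edgeR called 1 lower (Rrm2). Rrm2, the regulated subunit of ribonucleotide reductase, was at 7152, 5393, 5382 and 4239 units with vehicle and 6614, 5043, 5278 and 3906 with acetate. It was lower in each pair by a small step, with far larger gaps between replicates, and its log2 change was -0.09 ± 0.027 (SE, limma adjusted p = 0.0635). Rrm1, the other subunit, had a change of -0.03. Pcna, the sliding clamp of the polymerase, was at -0.02, Rfc2 of the clamp loader at -0.00, and Pola1 and Prim1 of the primase complex at 0.01 and 0.00. Chaf1b, which assembles histones onto new DNA, had a change of -0.02 and Slbp, which binds histone mRNA, one of -0.02.

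Ung, the uracil-DNA glycosylase that removes uracil from DNA, had one of the larger changes without passing the threshold. It was at 560, 418, 456 and 344 units with vehicle and at 556, 372, 419 and 307 with acetate. All 4 pairs were lower with acetate, although replicate 1 was nearly level between treatments (log2 difference -0.008). The log2 change was -0.11 ± 0.050 (SE, limma adjusted p = 0.195).

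The 3 regulators of the G1/S step did not move together. E2f1 (ENSMUSG00000027490, chr2:154559407-154569892, minus strand) was at 767, 986, 914 and 957 units with vehicle and at 865, 1027, 1013 and 1058 with acetate. It was higher with acetate in all 4 pairs, although acetate replicate 1 lay below vehicle replicates 2, 3 and 4. It rose by 9.53%, a log2 change of 0.13 ± 0.037 (SE, limma adjusted p = 0.0482). This call was lost with a pseudocount of 0.1 (adjusted p = 0.0602), with median-of-ratios scaling (0.0840), with quantile scaling (0.0515), with edgeR (0.0821), with DESeq2 (0.286) and with any 1 replicate left out (adjusted p from 0.0951 to 0.189), while its direction held in each.

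The cyclins E1 and E2, encoded by Ccne1 and Ccne2, activate CDK2 at the start of S phase. Ccne2 was at 1018, 1056, 951 and 723 units with vehicle and at 983, 982, 877 and 596 with acetate. It was lower in all 4 pairs, most so in replicate 4, with a log2 change of -0.14 ± 0.043 (SE, limma adjusted p = 0.0762), and of -0.09 without replicate 4 (adjusted p = 0.265). Ccne2 overlaps Ints8 on the opposite strand. Ccne1 was at 324, 208, 206 and 139 units with vehicle and at 336, 230, 215 and 126 with acetate, a log2 change of 0.03 ± 0.069 (SE, adjusted p = 0.864). It was higher in 3 pairs and lower in replicate 4, and it was the member that differed most between replicates.

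**Figure D2:**
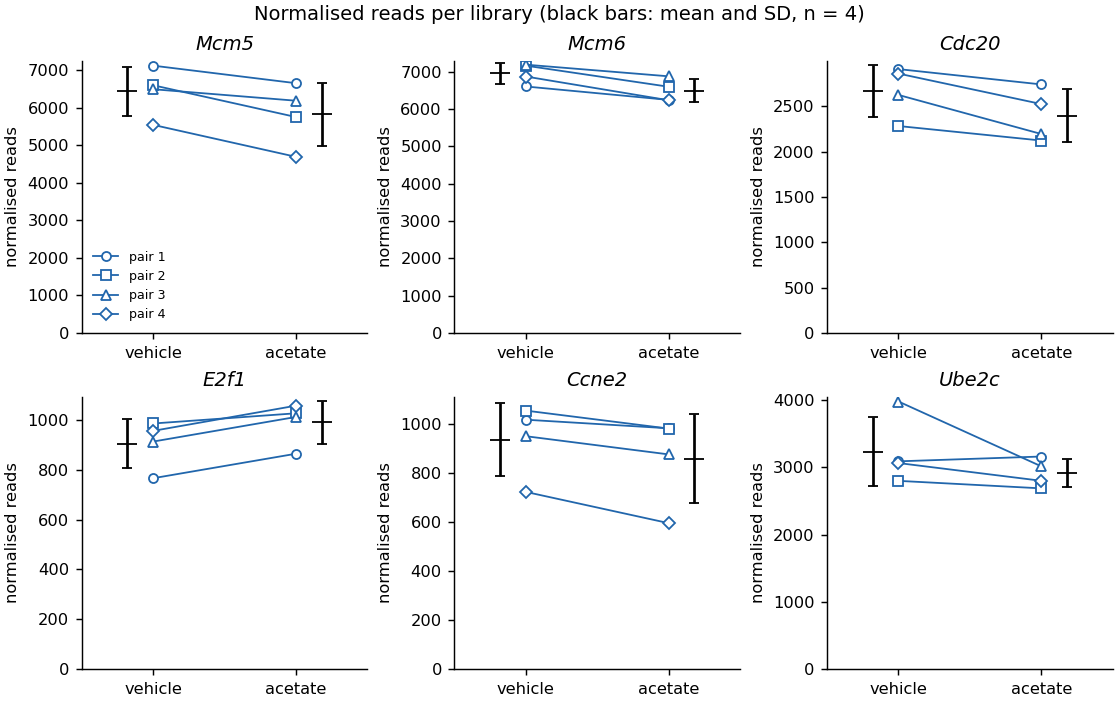
Normalised reads of Mcm5, Mcm6, Cdc20, E2f1, Ccne2 and Ube2c in each library, with vehicle and acetate libraries of 1 replicate joined by a line and the mean and SD (n = 4) drawn as black bars; each vertical axis starts at 0. Lines fall for Mcm5, Mcm6, Cdc20 and Ccne2 and climb for E2f1 in every pair, Ube2c falls in 3 of 4, and the groups overlap in all 6 panels.

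Among the G2/M genes 1 of 25 fell, none rose, and 24 did not pass. At an unadjusted p under 0.05 there were 5 lower and 0 higher. Over all 20189 genes 1746 were lower and 2774 higher at that threshold, and among the 9109 genes of like expression 1484 and 1666. By edgeR and DESeq2, 4 and 2 were lower and 0 higher, beside 1086 and 473 lower over all genes. Cdc20 (ENSMUSG00000006398, chr4:118432901-118437352, minus strand) recruits mitotic cyclins and securin to the anaphase-promoting complex for destruction. It was at 2911, 2283, 2626 and 2862 units with vehicle and at 2742, 2123, 2195 and 2526 with acetate. All 4 pairs were lower with acetate, replicate 3 the most, and acetate replicate 1 was above vehicle replicates 2 and 3. Cdc20 fell by 10.3%, from 2670 ± 287 to 2396 ± 290 units (SD, n = 4 each), a log2 change of -0.16 ± 0.034 (SE, limma adjusted p = 0.0148). The adjusted p was 0.0546, 0.123 and 0.107 without replicates 2, 3 and 4. Elovl1, with a mean of 904 units, overlaps Cdc20 on the opposite strand.

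Ube2c, the ubiquitin-conjugating enzyme that works with the anaphase-promoting complex, was at 3091, 2801, 3982 and 3066 units with vehicle and at 3163, 2689, 3017 and 2802 with acetate. Vehicle replicate 3 stood above the other 7 libraries, and replicate 1 was slightly higher with acetate. Its log2 change was -0.14 ± 0.055 (SE, limma adjusted p = 0.156), and it passed without replicate 1. The change rested largely on replicate 3, without which it was -0.05 (adjusted p = 0.548).

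The cyclins that drive entry into mitosis were lower without passing. Ccna2, cyclin A2, was at 7713, 6627, 7039 and 6477 units with vehicle and at 7292, 6294, 6422 and 6229 with acetate, below its pair each time, with a log2 change of -0.09 ± 0.025 (SE, limma adjusted p = 0.0584). Ccna2 passed with edgeR, DESeq2, quantile scaling, median-of-ratios scaling and a filter on low genes. Ccnb1, cyclin B1, was lower in 4 of 4 pairs with a log2 change of -0.07 ± 0.029 (SE, adjusted p = 0.152). Ccnb2 had a change of -0.03. Their kinase Cdk1 was higher in 4 of 4 pairs by a log2 change of 0.03 (adjusted p = 0.509), and the phosphatase Cdc25c, which activates Cdk1, had a change of -0.06 with mixed pairs.

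The mitotic kinases, checkpoint and chromosome genes lay close to 0. Of the 3 mitotic kinases, Aurkb was higher in 4 of 4 pairs with a log2 change of 0.06 ± 0.029 (SE, limma adjusted p = 0.242), Aurka had a change of 0.01 and Plk1 one of -0.06. The spindle checkpoint genes Bub1, Bub1b and Ttk had changes of -0.01, 0.04 and 0.01. Top2a, the topoisomerase that untangles sister DNA, had the highest level per kilobase of all members (3583 units with vehicle) and a change of 0.01 ± 0.024 (SE). Mki67, which encodes the proliferation antigen Ki-67, was at 15819, 17807, 17103 and 19767 units with vehicle and 14352, 18652, 17052 and 21568 with acetate, so that 2 pairs were higher and 2 lower, for a change of 0.01 ± 0.037 (SE, adjusted p = 0.904). The 95% interval of its log2 change ran from -0.07 to 0.09.

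Genes of the centromere, spindle and cytokinesis gave the same picture, with none past the threshold with limma and 1 at an unadjusted p under 0.05. Birc5, or survivin, of the chromosomal passenger complex had a log2 change of 0.03, and the centromere proteins Cenpe and Cenpf had changes of -0.05 and -0.00. The motor gene Kif23, needed for cytokinesis, was at 5323, 5056, 4780 and 5110 units with vehicle and at 4725, 4706, 4485 and 5176 with acetate. It was lower in replicates 1 to 3 and higher in replicate 4, with a log2 change of -0.09 ± 0.032 (SE, limma adjusted p = 0.126), and edgeR called it lower. Ect2, another cytokinesis gene, had a change of -0.05. The motors Kif11 and Kif20a and the spindle proteins Tpx2, Nusap1 and Hmmr had changes between -0.03 and 0.01.

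As whole groups, the 23 G1/S genes had a median log2 change of -0.03 and the 25 G2/M genes one of -0.02, beside 0.02 over all genes and -0.00 over the 9109 genes of like expression. In G1/S, 8 of 23 members were lower in 4 of 4 pairs, 1 was higher in 4 of 4 and 14 were mixed. In G2/M, 4 of 25 were lower in 4 of 4 pairs, 2 were higher and 19 were mixed. Such agreement toward lower values was found in 11.4% of all genes and 19.4% of the genes of like expression, against 34.8% of G1/S and 16.0% of G2/M members. By pair, the G1/S median was -0.01, -0.05, 0.01 and -0.12 for replicates 1 to 4, and the G2/M median was -0.03, -0.03, -0.00 and 0.03. The G1/S median depended on replicate 4 and was -0.01 without it, whereas it was -0.05 without replicate 1, -0.02 without replicate 2 and -0.06 without replicate 3. The G2/M median was between -0.03 and -0.01 with any 1 replicate left out. Of the 48 members 32 were lower and 16 higher in the fit, and with median-of-ratios scaling, edgeR or DESeq2 9 small changes crossed 0, leaving 41 lower and 7 higher.

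Summed over its members, G1/S took 73116 ± 4317 units per vehicle library and 70614 ± 5945 per acetate library (SD, n = 4 each), and G2/M took 139592 ± 6854 and 138559 ± 9988. With acetate the G1/S sum differed by -2.28%, -4.45% and -7.40% in replicates 1, 2 and 4 and by 0.0395% in replicate 3. The G2/M sum was lower in 3 pairs and 2.29% higher in replicate 4. These shifts were not tested. The largest, that of the G1/S sum in replicate 4 (from 66817 to 61871 units), was larger than the SD of the vehicle sums.

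**Figure D3:**
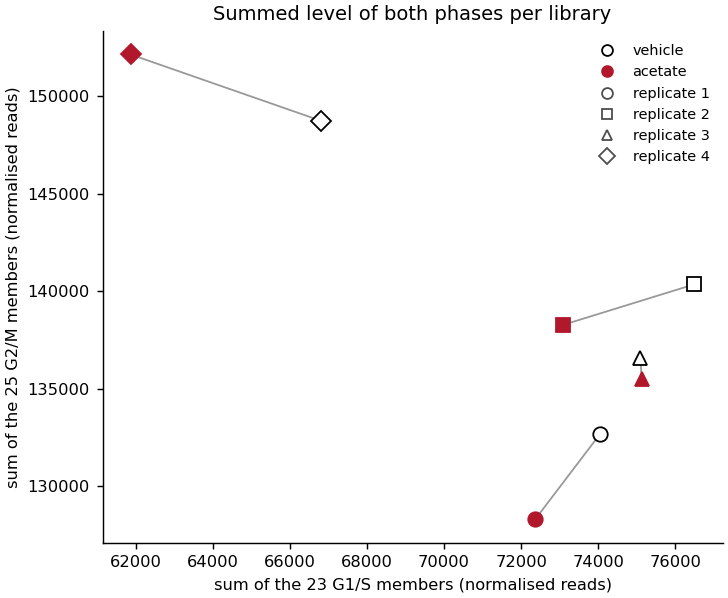
Sum of the 23 G1/S members (horizontal, normalised reads) against the sum of the 25 G2/M members (vertical, normalised reads) in each library; lines join the vehicle (open) and acetate (filled) libraries of 1 replicate, and neither axis starts at 0. Both replicate 4 libraries lie apart at the upper left, with 66817 and 61871 G1/S units, while the other 6 libraries lie between 72363 and 76497.

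The replicate number, not treatment, held most of the spread of these genes. On the log2 scale it accounted for 94.0% of the variance of the G1/S members and 93.3% of the G2/M members, with 3.34% and 3.23% for treatment. The values for the 9109 genes of like expression were close to these, at 94.5% and 3.71%. Replicate 4 was low for G1/S and high for G2/M: its G1/S members had a median log2 difference of -0.23 from the other replicates, with 20 of 23 below, and its G2/M members one of 0.13, with 19 of 25 above. The ratio of the G2/M sum to the G1/S sum was 2.23 with vehicle and 2.46 with acetate in replicate 4, and between 1.77 and 1.89 in the other 6 libraries. The 2 libraries of replicate 4 were also the deepest, and held the highest mitochondrial shares, 2.60% and 2.49%; whether these bear on the ratio was not tested.

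The most variable members differed between replicates by more than any member changed with treatment. Ccne1 had a 2.48-fold range of replicate means, highest in replicate 1 and lowest in replicate 4. Nusap1, a spindle microtubule protein, ran the other way with a 1.98-fold range, at 1781, 2720, 2629 and 3535 units with vehicle. Gins2 had a 1.73-fold range, with 403 and 429 units in the vehicle and acetate libraries of replicate 1 and 689 to 751 in the others. The median member had a 1.30-fold range in G1/S and a 1.28-fold range in G2/M. Ccnb2 and Ccnb1, which act at the same step, were ordered differently: Ccnb1 was highest in replicate 1, and Ccnb2 was lowest there and highest in replicate 4.

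**Figure D4:**
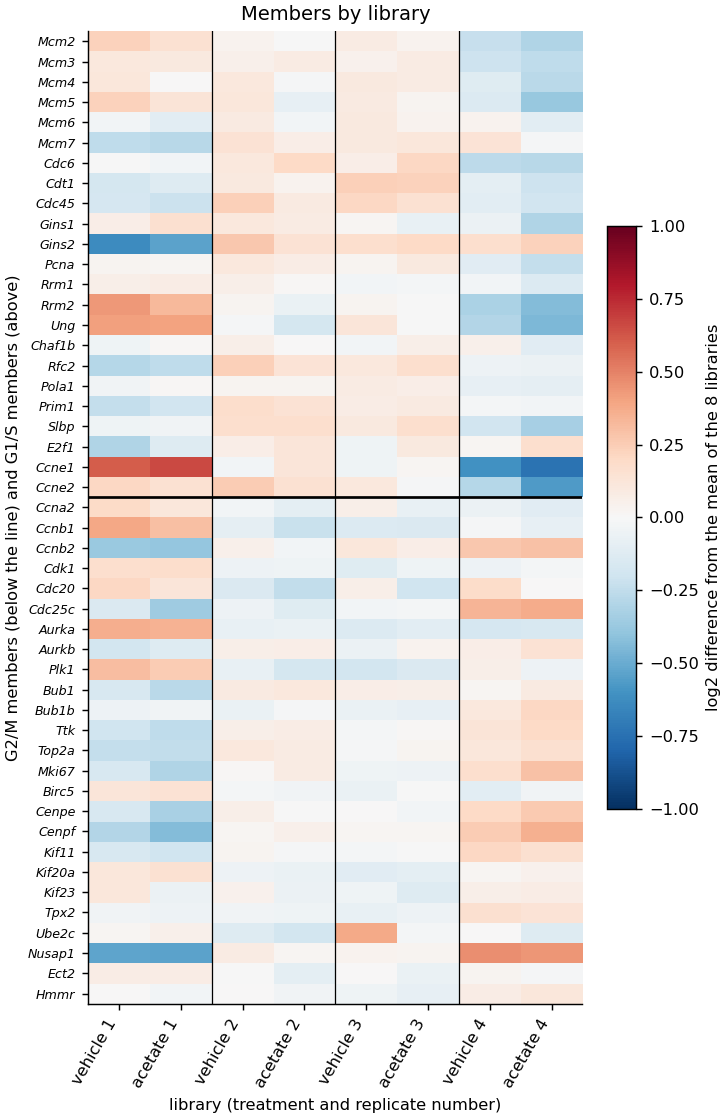
Log2 difference of each member (rows, G1/S above the line and G2/M below) from its own mean over the 8 libraries (columns, in vehicle and acetate pairs by replicate); red is above and blue below that mean. Columns of 1 pair look alike, replicate 4 is mostly blue above the line and red below it, and Ccne1, Gins2 and Nusap1 show the strongest differences between replicates.

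Further cell cycle genes, in 4 lists that share no gene with the 48, were set beside the members. Of 155 measured, 14 fell and 1 rose (9.03% and 0.645%). Over all genes 2.65% were lower and 5.99% higher, and among genes with a mean of at least 223 units, a floor that some of the 155 did not reach, 5.53% and 9.54%. At an unadjusted p under 0.05, 1746 of all 20189 genes were lower and 2774 higher. Over all genes edgeR called 1086 lower and DESeq2 473. Among 53 other replication and S phase repair genes 6 fell (11.3%) and none rose, with 18 lower and 0 higher at an unadjusted p under 0.05. By edgeR and DESeq2 14 and 5 of the 53 were lower and 0 higher, and the list median was -0.04. The 4 with the smallest p were Usp1, Dscc1, Pole and Chek1. Usp1, which removes ubiquitin from PCNA, was at 4268, 3591, 3625 and 3437 units with vehicle and 3901, 3026, 3228 and 2915 with acetate, lower in every pair, and fell by 12.7% (log2 change -0.20 ± 0.029, SE, limma adjusted p = 0.00254). Dscc1, part of the loader that sets cohesion during replication, fell by 23.4% (log2 change -0.38 ± 0.070, SE, adjusted p = 0.00635), the largest change in the list. Pole, the catalytic subunit of the leading-strand polymerase, had a log2 change of -0.16 (adjusted p = 0.00721) and Chek1, the S phase checkpoint kinase, one of -0.14 (adjusted p = 0.0179).

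Of 57 other G2/M genes, 4 fell (7.02%) and none rose with limma, beside 2.65% and 5.99% over all genes, and the list median was -0.03. At an unadjusted p under 0.05, 12 were lower and 2 higher. By edgeR and DESeq2 7 and 4 were lower and 0 higher. The counts over all genes at these thresholds are those given above. Hmgb2, a chromatin protein of dividing cells, was lower by 10.2% (log2 change -0.15 ± 0.024, SE, limma adjusted p = 0.00294). Aspm of the spindle pole, the centrosomal kinase Nek2 and Sgo1, which guards cohesion at centromeres, had log2 changes of -0.16, -0.13 and -0.14 (adjusted p = 0.0166, 0.0220 and 0.0352).

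Upstream of the members, 4 of 27 genes of the G1 cyclins, Rb and E2F list fell and 1 rose. These were 14.8% and 3.70%, beside 2.65% and 5.99% of all genes. Ccnd1, cyclin D1, was at 44239, 40600.4, 42103 and 32003 units with vehicle and 40869, 34784, 36848 and 29615 with acetate. All 4 pairs were lower, and it fell by 10.5% (log2 change -0.16 ± 0.027, SE, limma adjusted p = 0.00426). Its partner kinase Cdk6 had a log2 change of -0.17 (adjusted p = 0.00434) and Ccnd2 one of -0.16 (adjusted p = 0.0174), both lower in 4 of 4 pairs, while Ccnd3 rose with a log2 change of 0.17 (adjusted p = 0.0157; 0.0570 with DESeq2, which ended its call). E2f8, a repressor of E2F targets, fell in 4 of 4 pairs (log2 change -0.18 ± 0.029, SE, adjusted p = 0.00339). Cdk4 and Foxm1 had changes of -0.06 (adjusted p = 0.165) and -0.09 (0.0631), Rb1 one of -0.07 (0.639) and Mybl2, which encodes B-Myb, one of 0.01 (0.859). Foxm1 was at 4031 to 4339 units with vehicle and at 3698 to 4027 with acetate.

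Of 18 CDK inhibitors and arrest genes none passed with limma or DESeq2, with 3 higher and 2 lower at an unadjusted p under 0.05 and 1 higher and 2 lower by edgeR. Cdkn1a, or p21, was at 228, 1017, 852 and 611 units with vehicle and at 191, 1002, 762 and 712 with acetate, low in both libraries of replicate 1, with a log2 change of -0.05 ± 0.067 (SE, limma adjusted p = 0.702). Cdkn1b, or p27, had a change of -0.02 (adjusted p = 0.698). In the fit without the replicate block, 0 of the 155 genes passed, and 0 were at an unadjusted p under 0.05. Without replicate 2, 3 or 4, 5, 3 and 6 of them passed.

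**Figure D5:**
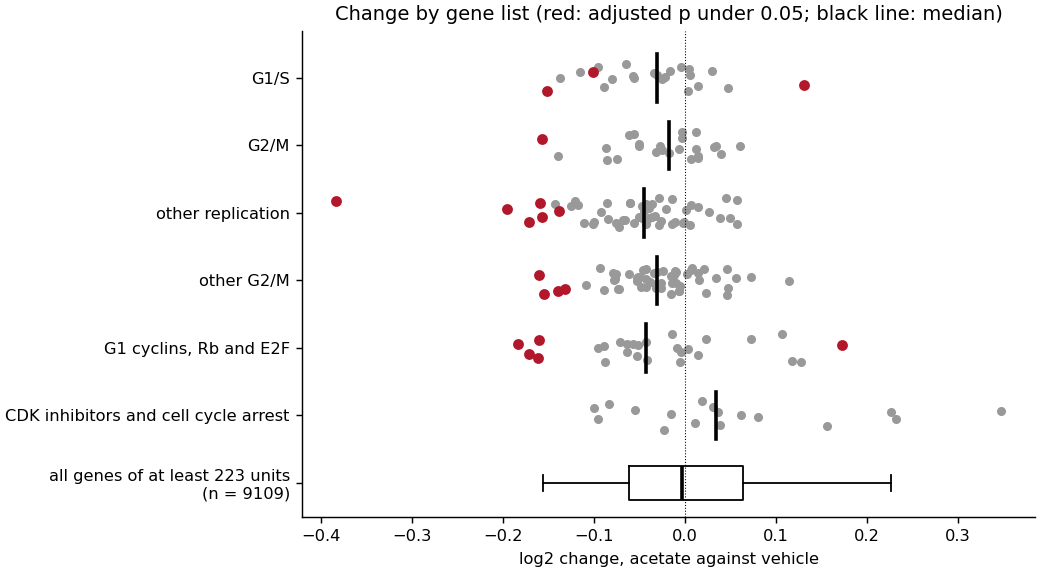
Log2 change with acetate for each gene of the 6 cell cycle lists with a mean of 10 units or more (points; red where the adjusted p was under 0.05) with the list median as a black line, beside the 9109 genes with a mean of 223 units or more (box, median and quartiles; whiskers, 5th to 95th percentile). Most points lie within the whiskers, the red points of each list lie mostly at its lower end, and Dscc1 is the farthest point to the left.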

How the data were processed

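Messenger RNA of 8 4T1 libraries (4 vehicle, 4 acetate) had been sequenced as paired-end reads after a stranded library preparation. Per the study's methods, STAR aligned reads to the GRCm38 mouse transcriptome and gave gene counts, and genes expressed in at least 4 of the 8 samples were kept. The submitters' processing notes also name HTSeq. Versions, gene annotation and strand setting are not given in the sources used here. Values were deposited as a signal, in which the authors had scaled reads by library total. At least 99.985% of values in each library were whole reads within 0.01, giving 19.9 M to 29.3 M reads (M, mega). In vehicle replicate 3 a read was worth 1.01 units, and 99.995% of its values were whole reads within 0.01.

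Identifiers were matched to GENCODE M21 (20004 of 20189 had a symbol). The 48 members and the further lists were chosen with earlier results of these data known. The comparison used limma 3.58.1 (R 4.3.3, trend, two-sided) on log2(value + 1) with the replicate number as a block, since the members' rule pairs libraries by number, same-numbered libraries share a code, and their deviations from the group means correlated at 0.81, 0.27, 0.20 and 0.69 over 18188 genes. Fold changes on this scale understate changes of low genes. The fit was also run on simulated data with changes larger than any found for the members. That run does not show how it handles changes this small. Alternatives were the fit without the block, pseudocounts of 0.1 and 5, a filter at a mean of 10 units, median-of-ratios and quantile scaling, edgeR 4.0.16 and DESeq2 1.42.0 on recovered reads, each replicate left out, and a shorter promoter window. Full statistics were given for members past the threshold and, in each phase, for the 2 largest changes that did not pass; in the other lists, for up to 4 of the smallest p per direction and always for Ccnd1, Cdk4, Cdk6, Rb1, Foxm1, Mybl2, Cdkn1a and Cdkn1b. Further members' values were given by role.

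Intervals of the blocked fit cover the spread of the change between pairs. Differences shared by both libraries of a pair are left out of them. Antisense neighbours and processed copies (such as Pcna-ps2, with a mean of 38.0 units) could share reads with members.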

Additional observations from a re-analysis of the deposited data

Results flagged for a closer look

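Of 138 sets of 4 libraries (for the most part members and further named genes, by group), 15 held 1 library far from the other 3. Chance would give about 7 if the sets were independent. They come from the same 8 libraries, so the 15 cannot be read as an excess over chance. The measure is the gap of that library to its nearest neighbour divided by the whole range. The libraries concerned were of replicate 1 in 8 sets and of replicate 4 in 7, and of no other replicate.

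Replicate 1 stood low for Mcm7 with vehicle (5089 units against 6495 to 6711, gap share 0.867), for Gins2 with vehicle (403 against 700 to 751, 0.852) and with acetate (429 against 689 to 731, 0.861), and for Bub1 with acetate (2792 against 3515 to 3632, 0.861). It stood high for Aurka with vehicle (2374 against 1643 to 1745, 0.861) and with acetate (2340 against 1644 to 1758, 0.836), for Cdk1 with acetate (6962 against 5959 to 6060, 0.899) and for Birc5 with acetate (4060 against 3585 to 3664, 0.834).

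Replicate 4 stood low for Mcm3 with acetate (5258 against 6644 to 6740, gap share 0.935), for Mcm4 with vehicle (4646 against 5423 to 5473, 0.940), for Ccnd3 with acetate (1205 against 1549 to 1558, 0.975) and for Foxm1 with acetate (3698 against 3980 to 4027, 0.856). It stood high for Bub1b with vehicle (4204 against 3722 to 3776, 0.887) and for Tpx2 with vehicle (5625 against 4777 to 4921, 0.830) and with acetate (5540 against 4870 to 4893, 0.965). The Gins2, Aurka and Tpx2 differences recurred in both libraries of their replicate.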

How the results depend on the processing

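The direction of Mcm5, Mcm6, Cdc20 and E2f1 held under every alternative run; which members passed did not. In the fit with no replicate block, 0 genes in all, 0 G1/S members, 0 G2/M members and 0 other cell cycle genes passed (353 genes at an unadjusted p under 0.05). A filter at a mean of 10 units called 6 G1/S and 2 G2/M members, median-of-ratios scaling 5 and 2 (with 7 G2/M members lower in 4 of 4 pairs), quantile scaling 1 and 2, and edgeR 5 and 4, with 30 other cell cycle genes. Over all genes these settings called 2263 (of 13292 tested), 1821, 1734 and 2400, beside 1744 in the main fit. DESeq2 called 1126 genes in all and 2 G2/M members. With 1 replicate left out, 409 to 1662 genes, 0 to 2 G1/S members, 0 to 2 G2/M members and 3 to 16 other cell cycle genes passed, and fewer libraries were fitted. The cause of the other shifts was not tested. Agreement in 4 of 4 pairs was not counted for edgeR, DESeq2, the unblocked fit or 3 pairs.

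Small log2 changes of members that passed no threshold crossed 0. With median-of-ratios scaling the values were Mcm3 -0.016, Gins2 -0.0041, Pola1 -0.014, Prim1 -0.015, Aurka -0.013, Ttk -0.0069, Top2a -0.0049, Mki67 -0.0073, Kif20a -0.0051. With edgeR they were Mcm3 -0.014, Gins2 -0.0079, Pola1 -0.012, Prim1 -0.014, Aurka -0.012, Ttk -0.0044, Top2a -0.0035, Mki67 -0.0054, Kif20a -0.0035, and with DESeq2 Mcm3 -0.016, Gins2 -0.0066, Pola1 -0.014, Prim1 -0.015, Aurka -0.014, Ttk -0.0062, Top2a -0.0049, Mki67 -0.0069, Kif20a -0.0051. With quantile scaling they were Pola1 -0.0039, Ccne1 -0.021, Cenpf 0.0022. With 1 replicate left out, log2 changes ran as follows: Mcm3 -0.0089 to 0.021, Gins2 -0.0101 to 0.062, Pcna -0.056 to 0.0096, Chaf1b -0.055 to 0.026, Rfc2 -0.028 to 0.028, Pola1 -0.0078 to 0.012, Prim1 -0.0093 to 0.018, Slbp -0.044 to 0.023, Ccne1 -0.0074 to 0.086, Aurka -0.0028 to 0.016, Bub1 -0.032 to 0.027, Ttk -0.0056 to 0.036, Mki67 -0.026 to 0.063, Cenpf -0.037 to 0.043, Tpx2 -0.014 to 0.0027.

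In a window of 150 bases before the start, E2F, CHR and CCAAT spellings were in 7.26%, 12.04% and 28.6% of all promoters. In each phase the number of member promoters with a given motif moved by at most 1, and G1/S promoters with both CHR and CCAAT went from 3 to 1.

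In each library every member rested on over 100 reads.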
